A study of Mus musculus with 4 samples.

Results

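Within 1 library of cells from macrodissected mouse lung tumours, epithelial cells with transcripts of an added transgene were compared with others. In the others neither transgene transcript was found. Which of the epithelial cells were tumour cells and which normal lung epithelium was not tested. The library is the KPF1F2 sample loaded after depletion of leukocytes and endothelium. A cell barcode was taken as epithelial when it had at least 1000 unique molecular identifiers (UMIs, counted RNA molecules), at least 500 genes, at most 20% mitochondrial UMIs, no UMI of the leukocyte gene Ptprc, and at least 2 UMIs of Epcam, Krt8, Krt18 and Cdh1 together. Cells with at least 10000 UMIs entered. The sides were then chosen by transgene UMIs, which are measured values. The positive side had at least 1 UMI of UPRT_short, a feature added to the reference, and the negative side had none of UPRT_short and none of CRE-ERT2, the added feature for the tamoxifen-dependent Cre recombinase. These were 400 positive and 748 negative cells, 1148 of the 23576 barcodes in the series.

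The series is about the forkhead factors Foxa1 and Foxa2 in lung adenocarcinoma that keeps the lineage factor Nkx2-1. It holds 4 groups of 1 library each, KP and KPF1F2, before and after depletion, all from mice of strain Mixed 129/B6. Both genotypes carried the same tumour-driving alleles, p53frt among them, and Rosa-FSF-CreERT2. KPF1F2 added Foxa1flox and Foxa2flox, and KP, the control, added Foxa1flox/+ and Foxa2flox/+, so that the controls too carried a floxed copy of each gene. All tumours were started with Ad5-mSPC-FlpO, an adenovirus with Flp recombinase under the surfactant protein C promoter, which favours type 2 cells of the alveolus. All mice had 4 daily doses of 120 mg/kg tamoxifen from week 10 after the virus and were sampled at week 12. The number, age and sex of the mice, and whether cells of several mice or tumours were pooled, are not given in the labels, and the labels name no UPRT allele. UPRT is the usual short name of uracil phosphoribosyltransferase. What UPRT_short covers is not stated there either. The 4 libraries held 47805086 to 63010016 UMIs.

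With 1 library per group there is no replicate, so no test was made. Values are CPM, the UMIs of a gene summed over the cells of a side per 1000000 UMIs of that side. The UMIs of the sides were 18313369 on the positive and 20127758 on the negative side. Folds are log2 of positive over negative CPM with 1 CPM added to each, while ratios are of CPM with nothing added. Intervals are 95% and cover counting error only: cells of 1 library share their source and are not replicates. In such sums, fewer cells of a type and less RNA per cell cannot be told apart. UPRT_short, CRE-ERT2, Ptprc, Epcam, Krt8, Krt18 and Cdh1 chose the cells and are not findings.

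The positive cells were deeper. Their median was 36907.5 UMIs (quartiles 22795 and 56681) against 23203.5 (15451 and 32817) in negative cells, with 5559.5 and 4366.5 genes and 3.59% and 4.49% mitochondrial UMIs. A transcript is found more easily in a deep cell, and UPRT_short was found in 18.2% (14.7 to 22.1, Clopper-Pearson) of 451 cells below 20000 UMIs, 23.7% (20.3 to 27.3) of 583 from there to below 40000, and 48.0% (42.8 to 53.2) of 375 at or above 40000. Lack of both transcripts therefore does not show that a cell lacks the transgenes. Counts of genes were therefore also taken within these depth ranges and with each cell thinned to 10000 UMIs.

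**Figure D1:**
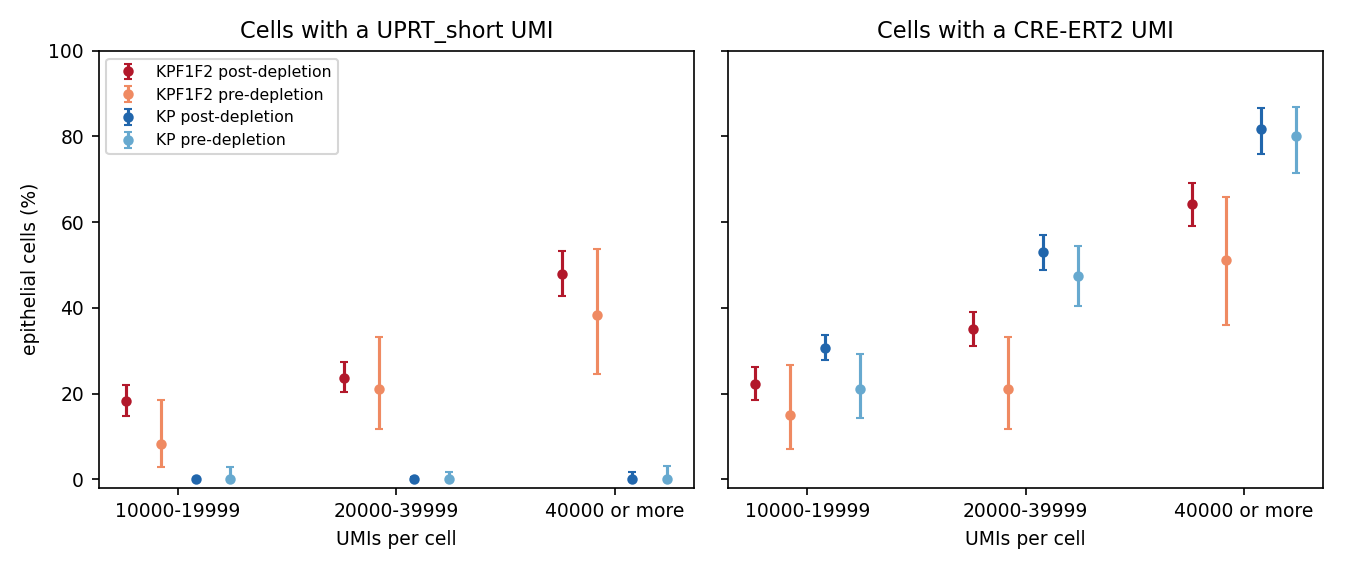
Share of epithelial cells (%) with a UPRT_short UMI (left) and a CRE-ERT2 UMI (right) by UMIs per cell in the 4 libraries. Points are shares and bars are 95% Clopper-Pearson intervals. Both shares are larger in deeper cells, UPRT_short from 18.2% to 48.0% in KPF1F2 post-depletion, and UPRT_short is at 0 in both KP libraries.

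UPRT_short UMIs numbered 9418 in the positive cells, with a median of 9 and up to 597 in a cell. At the edge of the rule, 67 positive cells had 1 such UMI and 29 had 2, while 195 had 10 or more. Over both sides 42 cells lay below 11000 UMIs, and 33 cells that met all else had 9000 or more but under 10000. Of the positive cells 284 also had a CRE-ERT2 UMI and 116 did not. A further 261 cells with CRE-ERT2 but no UPRT_short belong to neither side. UPRT_short had 0 UMIs in all barcodes of both KP libraries. In the KPF1F2 pre-depletion library, where leukocytes remain, 6 of 444 leukocyte barcodes with at least 10000 UMIs (Ptprc present, no epithelial UMI) had a UPRT_short UMI, 1.35% (0.498 to 2.92), and none had CRE-ERT2, which allows up to 0.676%. Their median depth was 16770 UMIs. EGFP, another added feature, had 0 UMIs on both sides.

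The alveolus is lined by flat type 1 cells, across which gas passes, and by type 2 cells, which make surfactant and store it in lamellar bodies built from newly made lipid. Type 2 cells can divide and turn into type 1 cells through a transitional state rich in keratins. Foxa1 and Foxa2 bind DNA through a forkhead domain and act beside Nkx2-1, the lung lineage factor, at genes of surfactant proteins. The Cre recombinase, held inactive until tamoxifen is given, cuts out DNA between loxP sites, here those placed in the Foxa genes.

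Promoters of 3 genes that were at least 2-fold different in this comparison are shown. They were picked from those that hold a match to the core forkhead sequence, TGTTTAC or TGTTTGC on either strand. The matches are in capitals. The reverse complements searched were GTAAACA and GCAAACA. Each is 300 bases of GRCm38.p6 from RefSeq, 250 before the start of the gene and 50 from it, read along the gene. Sftpb, a surfactant protein, is at chr6:72304360-72304659 on the plus strand, and Lamp3, a lamellar body protein, at chr16:19706316-19706615 on the minus strand. Both were lower in positive cells. Sdcbp2, at chr2:151572373-151572672 on the plus strand, was much higher. Top2a and Scgb3a1, both at least 2-fold lower, held a match too and are not shown.
Sftpb: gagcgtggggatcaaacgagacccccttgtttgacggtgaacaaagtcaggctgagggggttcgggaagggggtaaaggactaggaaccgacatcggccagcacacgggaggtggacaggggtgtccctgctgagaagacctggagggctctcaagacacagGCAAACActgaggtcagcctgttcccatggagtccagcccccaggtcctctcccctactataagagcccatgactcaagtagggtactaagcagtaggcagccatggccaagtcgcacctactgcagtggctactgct
Lamp3: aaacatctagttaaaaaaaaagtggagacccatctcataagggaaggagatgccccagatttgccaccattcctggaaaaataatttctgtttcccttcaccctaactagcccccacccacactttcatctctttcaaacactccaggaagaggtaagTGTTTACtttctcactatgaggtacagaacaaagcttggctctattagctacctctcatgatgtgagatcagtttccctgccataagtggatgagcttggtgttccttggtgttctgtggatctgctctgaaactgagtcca
Sdcbp2: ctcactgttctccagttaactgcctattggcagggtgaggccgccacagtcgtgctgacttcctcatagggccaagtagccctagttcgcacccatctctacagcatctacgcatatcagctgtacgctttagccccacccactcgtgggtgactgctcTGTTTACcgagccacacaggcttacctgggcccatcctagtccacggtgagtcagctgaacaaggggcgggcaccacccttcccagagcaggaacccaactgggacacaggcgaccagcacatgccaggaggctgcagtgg
Such a match is common and is a description of the letters, not of binding. It was found in 2785 of 32851 promoters of this length (8.48%), and no factor's binding is read from it. Here and below, the 15 highest and 15 lowest folds are those left after a filter. It took out added features, gene models and ribosomal, mitochondrial, immunoglobulin, T cell receptor and haemoglobin genes. Genes with more CPM in cells with a Ptprc UMI of the same library than on the higher side were also taken out. Of the 15 genes with the highest folds 9 were found in the RefSeq table and 1 held a match, Sdcbp2. Of the 15 lowest 9 were found and 1 held a match, Scgb3a1.

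Of 5767 genes with a mean of at least 20 CPM over both sides, 573 (9.94%) were at least 2-fold higher in positive cells and 443 (7.68%) at least 2-fold lower. These 2 shares of all genes stand beside each count by list below, also where they are not repeated. Positive cells had more of glycolysis, squamous and transitional alveolar genes and of Cdkn2a, and less of type 2 alveolar, lipid synthesis and MHC genes, as counted by list below. The median fold of all genes compared was 0.22, so folds above it are those of genes that lay higher than most. With each cell thinned to 10000 UMIs there were 455 and 399 such genes, 422 and 359 of them shared with the first counts. Within the depth ranges there were 402 and 411 below 20000 UMIs, 409 and 311 up to 40000, and 688 and 448 above. When cells with CRE-ERT2 but no UPRT_short were added to the negative side, the counts were 343 higher and 361 lower, so that lower genes were then the more numerous.

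**Figure D2:**
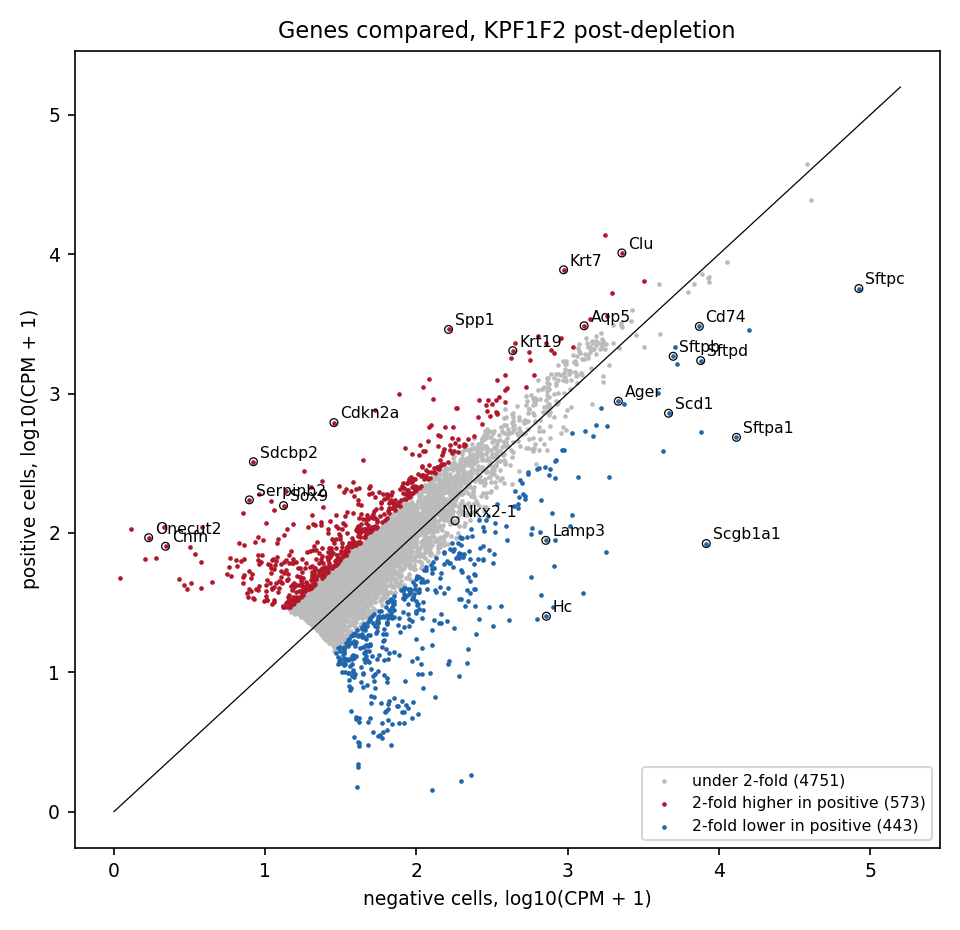
Summed expression of 5767 genes in negative (horizontal) and positive (vertical) cells of KPF1F2 post-depletion, log10 of CPM plus 1; each point is a gene, red 2-fold higher and blue 2-fold lower in positive cells, and the line marks equality. Sdcbp2, Cdkn2a, Spp1 and Krt7 lie far above the line, and Sftpc, Sftpa1 and Hc far below it.

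The floxed genes were read first. Foxa1 and Foxa2 had 0 UMIs under their own identifiers in every library, and their reads stand only under added pieces of unstated extent. The piece Foxa1_2 had 10 UMIs in positive and 150 in negative cells, 0.546 CPM (0.262 to 1.00) against 7.45 (6.31 to 8.74), 13.7-fold lower (7.22 to 29.0). It was found in 10 positive and 107 negative cells, and it was low also in cells with CRE-ERT2 alone, at 0.603 CPM from 6 UMIs. The other piece, Foxa1_1, lay the other way, at 8.85 CPM against 4.12, a ratio of 2.15 (1.64 to 2.83). Foxa2_1 had 3 UMIs on each side and the other Foxa2 pieces none, and nothing can be read about Foxa2. In the 36 positive and 110 negative cells of KPF1F2 pre-depletion Foxa1_2 differed in the same direction, with 5 and 43 UMIs and a fold of −1.98. In KP, where CRE-ERT2 alone sets the sides, its folds were 0.06 post-depletion and 0.17 pre-depletion. Foxa3, the third gene of the family, stood at 8.30 CPM in positive and 2.14 in negative cells, below the 20 CPM needed to be counted.

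Of 18 lung transcription factors 15 were measured, of which 2 were 2-fold higher and 5 2-fold lower, with a median fold of −0.56. Of all genes 9.94% were 2-fold higher and 7.68% 2-fold lower, so the higher count is near the share of all genes. Nkx2-1 (chromosome 12, 56531958 to 56536908), the factor that defines these tumours, was present on both sides at 121 and 179 CPM, a fold of −0.56. After thinning, 61.5% of positive and 71.4% of negative cells had a Nkx2-1 UMI (88.5% and 81.7% unthinned), against 0.451% of the leukocytes above. Sox9, a factor of the tips of the growing lung and of many tumours, stood at 156 CPM against 12.2 (12.8-fold, 11.2 to 14.6) and was found in 47% of thinned positive and 5.88% of negative cells (61.8% and 9.89% unthinned), with 0% of leukocytes. Elf3, an epithelial ETS factor, was just past 2-fold, with a fold of 1.00. Irx1 and Irx2, Iroquois homeobox factors of the distal lung, had folds of −2.11 and −1.88. Etv5, an ETS factor that maintains type 2 cells, had a fold of −2.15, the ETS factor Elf5 −1.12 and Cebpa, a factor of type 2 maturation, −1.05. Hmga2, a chromatin protein of embryonic and advanced lung tumours, was just under the minimum of 20 mean CPM, at 38.6 CPM in positive cells, where 62 cells had it, and 1.14 in negative cells, where 9 did.

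Of 9 forkhead and hepatocyte nuclear factor features, the Foxa pieces among them, only Onecut2, described below, reached the minimum. Of 16 gastrointestinal genes 2 did, the tight junction gene Cldn2 (0.69) and the immunoglobulin transporter Pigr (−2.34).

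Type 2 alveolar genes were lower in positive cells throughout: all 24 measured members of 25 had folds below 0 and 22 were 2-fold lower, with a median fold of −2.28 that ranged from −2.83 to −1.72 over the alternatives. Of all 5767 genes compared, 2001 had folds below 0. Together the 25 genes made up 18671 CPM of the positive and 152088 CPM of the negative side. Sftpc (chromosome 14, 70520949 to 70524081), the surfactant protein that marks type 2 cells and whose promoter drives the virus, stood at 5672 CPM (5638 to 5707) against 84212 (84085 to 84339), 14.8-fold lower (14.8 to 14.9). Per cell its median was 196 CPM (quartiles 104 and 519) in positive and 8036 (337 and 159813) in negative cells, so the median positive cell lay below the lower quartile of the negative ones. A single positive cell held 25.9% of that side's Sftpc UMIs. The 37 cells with a Ptprc UMI in the same library, which also held epithelial RNA (Epcam at 482 CPM), stood at 10869 CPM, above the positive side, and 38.1% of thinned leukocytes of KPF1F2 pre-depletion had a UMI of it. The level in positive cells was thus no higher than in cells marked by Ptprc.

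The remaining surfactant proteins differed less evenly. Sftpa1 (chromosome 14, 41131782 to 41136452), a collectin of surfactant, stood at 484 against 13057 CPM (27.0-fold lower, 26.4 to 27.6), and Sftpd, its relative, at 1723 against 7572 (4.40-fold lower). Sftpb, needed to spread the surfactant film, stood at 1849 against 4980.2, a fold of −1.43, the smallest of the surfactant genes. Sftpb holds a forkhead match in the promoter printed above and so does Lamp3, which stood at 87.4 against 716 CPM (8.19-fold lower, 7.77 to 8.62). The promoters of Sftpa1 and Hc, the lowest folds of the list, held no match. The lowest fold of the list was that of Hc (chromosome 2, 34983331 to 35061438), complement component C5, at 24.2 against 722 CPM, 29.8-fold lower (27.1 to 32.8), with a UMI in 57 positive and 399 negative cells. Cxcl15, a chemokine of lung epithelium, had a fold of −3.46, the fatty acid carrier Fabp5 −3.20, the phosphate transporter Slc34a2 −2.90, the alarmin Il33 −2.71, the lipid transporter of lamellar bodies Abca3 −1.62 and the surfactant protease Napsa −1.49. Only Muc1 (−0.38) and Ctsh (−0.69) of the measured members were under 2-fold.

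Lipid synthesis genes were lower too. Of 14 genes of fatty acid and phospholipid synthesis 13 were measured, all 13 had folds below 0 and 10 were 2-fold lower (median −1.20, −1.39 to −1.04 over the alternatives). Scd1 (chromosome 19, 44394455 to 44407879), the desaturase that makes monounsaturated fatty acids and also a type 2 marker, stood at 721 against 4641 CPM (6.44-fold lower, 6.32 to 6.55), and the fatty acid synthase Fasn at 97.7 against 574 (5.87-fold lower, 5.59 to 6.18). Acsl4, which activates long fatty acids, had a fold of −1.70 and the elongase Elovl1 −1.58. Of 12 cholesterol genes 11 were measured and 6 were 2-fold lower, among them Insig1 (−2.25), which restrains sterol synthesis, the isomerase Idi1 (−1.96) and the synthase Hmgcs1 (−1.46). Msmo1 alone of that list lay above 0, at 0.13.

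**Figure D3:**
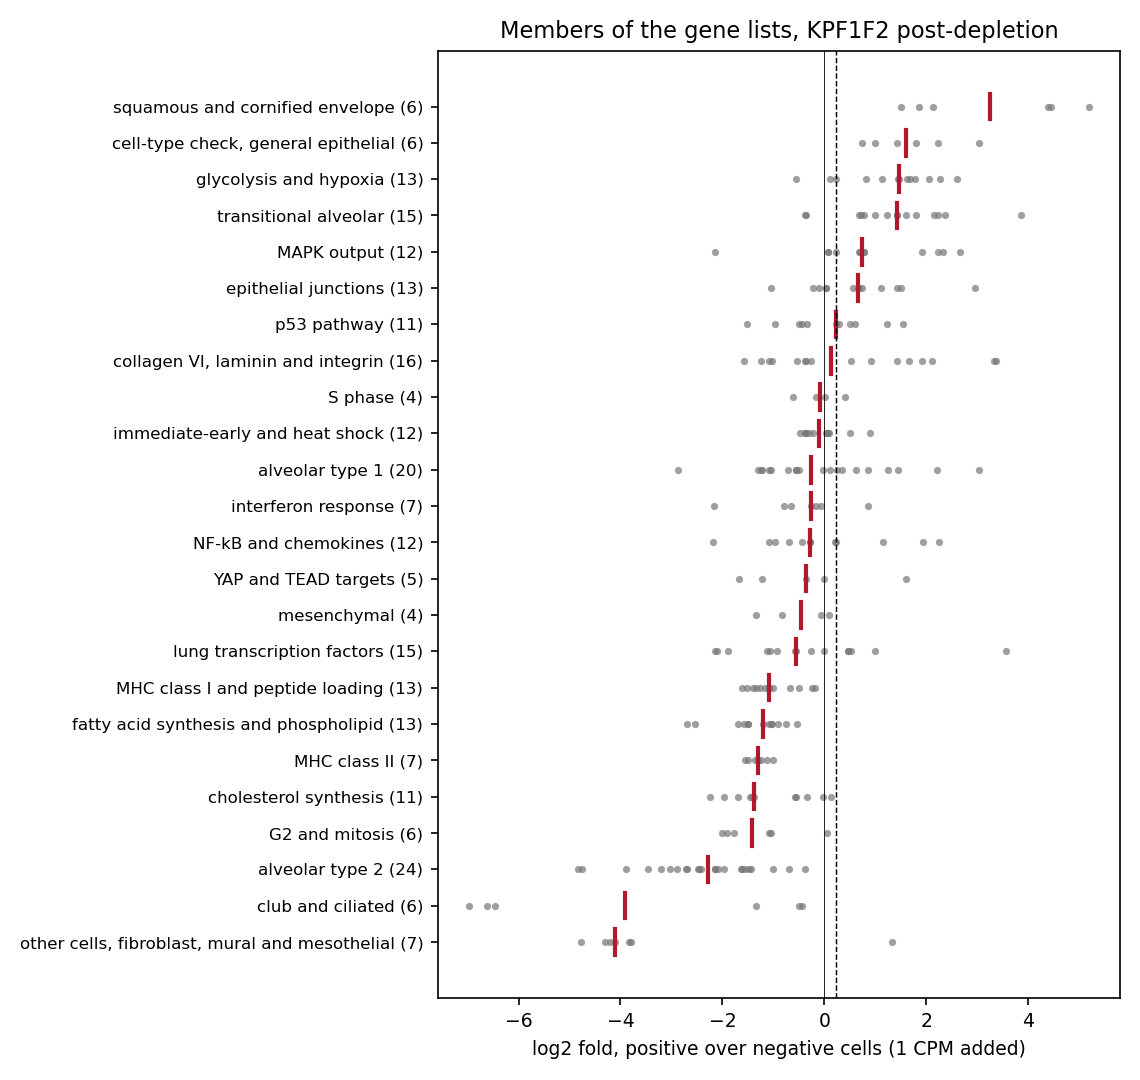
Log2 fold of each measured member of the gene lists with at least 4 measured members, positive over negative cells with 1 CPM added; grey points are genes, red bars the list medians, numbers in brackets the measured members, and the dashed line the median of all 5767 genes (0.22). Squamous, glycolysis and transitional lists lie right of the line and the type 2, lipid and MHC lists left of it.

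Type 1 alveolar genes split. Of 20 measured members of 24, 4 were 2-fold higher and 6 2-fold lower, with a median of −0.26, while their summed level was higher, 14947 against 7809 CPM, since Krt7 alone made up 7725 of the first. Aqp5, the water channel of type 1 cells, stood at 3062 against 1283 CPM (2.39-fold higher, 2.35 to 2.42), the caveolin gene Cav2 at 143 against 51.7, and the semaphorin Sema3e at 40.8 against 8.05. On the other side Ager (chromosome 17, 34597862 to 34600936), the receptor for glycation products that is the classic type 1 marker, stood at 880 against 2159 (2.45-fold lower, 2.41 to 2.50), the actin-binding Limch1 had a fold of −2.87, the tight junction gene Cldn18 −1.05 and the basement membrane collagen Col4a3 −1.24. Per cell, the median of Ager was 208 CPM in positive and 1511 in negative cells. Hopx, a homeodomain protein of type 1 cells, had a fold of −0.50 in the sums but was found in more of the thinned positive cells, 52.5% against 38.6% (77.8% and 50% unthinned, 27.5% of leukocytes), so its share of cells and its summed level point opposite ways and no order is read from it. The caveolin gene Cav1 stood at 93.2 against 77.7, a fold of 0.26, and podoplanin, Pdpn, at 97.2 against 99.3.

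Genes of the transitional state were higher. Leaving out Krt8 and Krt18, which chose the cells, 15 of the 17 genes were measured, 9 were 2-fold higher and none 2-fold lower, with a median of 1.43 (0.78 to 1.54 over the alternatives). Plaur, the urokinase receptor, had the largest fold at 199.9 against 12.8 CPM (15.6-fold, 13.7 to 17.8). Lgals3, the lectin galectin-3, stood at 2308 against 447 and Krt19 at 2030 against 432, 4.69-fold higher (4.59 to 4.81). Clusterin, Clu, an extracellular chaperone, was among the most abundant RNAs of positive cells, at 10208 against 2279 CPM. The 37 cells with a Ptprc UMI in the same library had 10233 CPM of it, no less than the positive side. The transitional members below 0 were Tm4sf1 (−0.38) and Itgb6 (−0.35). Krt7 (chromosome 15, 101411043 to 101430313), the keratin of simple ducts, is not on this list but on the type 1 and general epithelial lists. It stood at 7725 against 938, 8.23-fold higher (8.11 to 8.36). Its median per cell was 5550.1 CPM (quartiles 1796 and 10683) against 267 (74 and 953), so the quartile ranges did not overlap. General epithelial genes outside the rule also lay higher, Cldn4 at 360.5 against 103 CPM and Cldn7 at 891 against 333. With at least 5 instead of 2 of the rule's epithelial UMIs asked of each cell, the counts of 2-fold genes were 609 and 403.

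Squamous and cornified envelope genes lay higher, although most keratins of squamous epithelium were too low to be measured. Of 14 genes 6 were measured and all 6 were 2-fold higher, with a median of 3.25 (2.05 to 3.63). A gene could reach the minimum through the side where it is high, so that count is a description. Serpinb5 (chromosome 1, 106861173 to 106883348), the serpin maspin, stood at 189.8 against 8.15 CPM (23.3-fold, 19.9 to 27.4) and was found in 275 of 400 positive and 44 of 748 negative cells. Serpinb2, an inhibitor of urokinase, stood at 172 against 6.86, in 99 and 21 cells, and Cnfn, a protein of the cornified envelope, at 79.1 against 1.19, in 79 and 4 cells. For Serpinb2 the 5 cells of each side with most of it held 50.5% of the positive and 84.1% of the negative UMIs. The surface protein Ly6d, the p63 target Perp and the desmosome plaque gene Dsp had folds of 2.13, 1.86 and 1.51.

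Among the 15 highest folds, those carried by many cells were Sdcbp2, Cdkn2a, Serpinb5 and Spp1. Sdcbp2 (chromosome 2, 151572622 to 151590005), a PDZ-domain relative of syntenin, stood at 323 CPM (315 to 332) against 7.35 (6.22 to 8.64), 44.0-fold higher (37.4 to 52.1). It was found in 60% of thinned positive and 4.68% of negative cells (71.5% and 7.35% unthinned), and in 2.48% of leukocytes. Cdkn2a (chromosome 4, 89274471 to 89294653), which encodes the cell cycle brakes p16 and p19, stood at 618 (607 to 629.5) against 27.5 (25.2 to 29.9), 22.5-fold higher (20.6 to 24.5), in 65.2% and 5.62% of thinned cells (73.2% and 7.89% unthinned), with 9.23% of leukocytes. Per cell its median was 312 CPM in positive cells and 0 in negative ones, and a single negative cell held 19.5% of that side's UMIs. Spp1, the secreted glycoprotein osteopontin, stood at 2883 against 162 (17.8-fold, 17.2 to 18.4), in 241 and 137 cells, but 58.3% of leukocytes had it too. A single negative cell held 37.4% and 5 cells 69.4% of that side's Spp1, and the log2 fold ranged from 1.69 to 5.84 over the alternatives, against 4.15.

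Onecut2, a homeobox factor of the liver and neurons, stood at 91.4 CPM against 0.696 (131-fold, 78.1 to 241), in 114 positive and 3 negative cells. Il24, a cytokine of the interleukin 10 family, was found in 100 and 16 cells and Cysrt1 in 129 and 22. Mcpt2, named for a mast cell protease, was found in 71 and 19 cells. Of its UMIs 5 cells held 53.5% on the positive side, and 1 cell held 81.45% on the negative side. Prl2c2 and Prl2c3, paralogs of the prolactin family that the counting may not separate, were found in 65 and 86 positive and 4 and 8 negative cells. Other large folds rested on fewer cells still. The top gene by fold, Dmbt1, a scavenger receptor of mucosal surfaces (6.35), had 97.9% of its positive UMIs in 5 cells, and its fold became 1.63 without the 5 cells of each side with most of it and −0.09 among cells from 20000 to below 40000 UMIs. Crct1 (5.69), an epidermal gene, had 95.4% of its UMIs in 1 cell and stood at 0.15 without such cells and −1.73 among cells below 20000 UMIs. Rbp2, an intestinal retinol carrier (5.43), was found in 18 positive cells and stood at 2.80 without the top cells.

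The p53 gene and signalling pathways were read next. Trp53, which Flp deletes, stood at 99.6 against 33.5 CPM, 2.97-fold higher (2.72 to 3.25). Libraries of this kind read the 3′ ends of RNA, and which exons the UMIs came from is not given, so this level does not check the deletion. Of 12 p53 pathway genes 11 were measured, with 2 2-fold higher (Trp53 and Cdkn1a), 1 2-fold lower (Phlda3, −1.51) and a median of 0.24, close to that of all genes. Cdkn1a, the cell cycle inhibitor p21, stood at 335 against 142. Of 14 genes that report MAPK signalling 12 were measured, with 4 2-fold higher and 1 2-fold lower (median 0.73). For both lists the shares of all genes were 9.94% higher and 7.68% lower. The higher ones were the phosphatases Dusp5 (2.67) and Dusp4 (2.33), the AP-1 subunit Fosl1 (2.23) and the growth factor epiregulin, Ereg (1.92), and the lower one was Etv5.

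Glycolysis and hypoxia genes lay higher, with 9 of 13 measured members 2-fold higher, none 2-fold lower and a median of 1.47 (1.16 to 1.57). The glycolytic enzymes Eno1 (407 against 83.0 CPM), Pkm (894 against 258), Gapdh (2313 against 722) and Aldoa (1064 against 384) and the glucose transporter Slc2a1 (52.1 against 11.8) were among them, as was Ndrg1, a gene raised by low oxygen (232 against 37.3). Vegfa, the endothelial growth factor that low oxygen also raises, lay the other way, with a fold of −0.56, while the mitophagy gene Bnip3 was near the median of all genes at 0.24. Pgk1 and Gapdh have many processed copies in the genome, and how reads that fit several places were treated is not given.

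Genes of the basal surface lay on both sides. Of 16 measured collagen VI, collagen IV, laminin and integrin genes 6 were 2-fold higher and 4 lower, against 9.94% and 7.68% of all genes. Among the higher ones were the collagen receptor subunit Itga2 (3.37), Itgb4 and Itga6, the pair of hemidesmosomes (43.7 against 3.43 CPM and 209 against 47.3), Itga3, and the laminin chain Lama3 (1.43), while the laminin chain Lamb3 had a fold of 0.52. The lower ones were the laminin receptor subunit Itga7 (−1.57), the collagen IV chains Col4a3 (−1.24) and Col4a4 (−1.09) and the collagen VI chain Col6a2 (−1.02); Col6a1 stood at −0.53. Of 13 measured junction genes 4 were 2-fold higher, the desmosome genes Dsg2 (2.96) and Dsp and the tight junction genes Cldn7 and Ocln, and Cldn18 alone was 2-fold lower. The adherens junction partner of Cdh1, Ctnnb1, stood at −0.23. Mesenchymal genes had a median of −0.45 over 4 measured members, with Vim at 0.09 and Sparc at −1.33.

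Antigen presentation genes were lower. All 7 measured MHC class II genes were 2-fold lower (median −1.29, −1.66 to −0.59 over the alternatives), led by H2-Aa at 497 against 1464 CPM (2.94-fold lower, 2.88 to 3.02). Cd74, the invariant chain, stood at 3034 against 7420.5 (2.45-fold lower, 2.42 to 2.47). Per cell the median of Cd74 was 442 CPM (quartiles 40.8 and 6312) in positive and 6454 (3427 and 11079.6) in negative cells: the positive cells ranged widely and their upper quartile lay just under the negative median. Of 13 measured MHC class I and peptide loading genes 9 were 2-fold lower and none higher (median −1.09, −1.30 to −0.55 over the alternatives), with B2m at 394 against 941 CPM, the immunoproteasome subunit Psmb9 at −1.34, and H2-Q7, H2-Q6 and H2-Q4, close paralogs that the counting may not separate, between −1.62 and −1.41. With the positive side set by CRE-ERT2 in place of UPRT_short, 0 of 13 class I and 0 of 7 class II genes were 2-fold lower, with medians of −0.55 and −0.59. Cd74 stood at 10893 CPM in the 37 cells with a Ptprc UMI, above both sides. The summed level of the 16 leukocyte markers was 98.2 CPM in positive and 1814 in negative cells, of which Lyz1, a lysozyme, made up 71.5 and 1794. That gap is therefore the gap of 1 gene, and no excess of the other leukocyte markers in negative cells is read from it. Lyz1 was the only 1 of the 16 that could be counted, and the median per cell of the list was 20 CPM in positive and 32.2 in negative cells. The part of leukocyte RNA in the MHC difference was not tested.

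Of 7 measured interferon response genes 1, the membrane protein Ifitm3 (87.9 against 394 CPM), was 2-fold lower and none was 2-fold higher. That is near the 17.6% of all genes that were 2-fold different either way. The interferon median was −0.27. Of 12 measured NF-kB and chemokine genes 3 were 2-fold higher and 2 lower, against 9.94% and 7.68% of all genes. The colony-stimulating factor Csf2 (59.2 against 11.6), the neutrophil attractant Cxcl5 (60.6 against 15.1) and Cxcl16 were higher, though 1 positive cell held 34.4% of the Cxcl5. In cells with a Ptprc UMI of the same library Cxcl5 stood at 88.8 CPM, above both sides. The adhesion molecule Icam1 was lower (47.2 against 217 CPM), and so was Ccl20 (−1.09), of which a single negative cell held 67.2% and whose fold turned to 0.20 without the 5 top cells of each side. Cxcl2 had a fold of 0.21. None of 12 immediate-early and heat shock genes, which dissociation of tissue can raise, was 2-fold different (median −0.10), with Egr1 at −0.47 and Hsp90aa1 at 0.90 the farthest each way.

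Mitosis genes were lower in the sums but rested on few cells. Of 15 G2 and mitosis genes 6 were measured and 5 were 2-fold lower (median −1.43). Here too a gene could reach the minimum through the side where it is high, so that count is a description. Mki67 was found in 15 of 400 positive and 60 of 748 negative cells, at 9.06 against 37.0 CPM, and Top2a in 24 and 67. The median was 0.04 among cells from 20000 to below 40000 UMIs in place of −1.43, so the direction was not kept in that depth range. Leaving out cells with a Mki67 or Top2a UMI removes these genes by construction and shows nothing more. Of 12 S phase genes 4 were measured and none was 2-fold different, with Pcna at 0.41 and Tyms at −0.60.

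The 15 lowest folds left after the filter held the type 2 genes Hc and Sftpa1, the lysozyme gene Lyz1, genes of club cells and genes of stromal or mesothelial cells. Many of them came from few negative cells. The filter took out the collagen gene Col1a1 (−4.31), whose level was higher in cells with a Ptprc UMI (181 CPM) than on the negative side (131). Scgb1a1, Scgb3a2 and Scgb3a1, secretoglobins of the airway club cell, had folds of −6.62, −6.47 and −6.97. A single negative cell held 99.2% of that side's Scgb3a1, and the last pair stood at −0.65 and −0.23 without the 5 cells of each side with most of them. Scgb1a1 stood at −5.70 without such cells, and 48.6% of leukocytes before depletion had a UMI of it. Igfbp5 (−4.77), Gas1 (−4.30), Gpm6a (−4.34), Sparcl1 (−4.35), Fbn1 (−4.49) and Tagln (−4.77) were found in 105, 102, 60, 106, 102 and 36 of the 748 negative cells. Hp, the haemoglobin scavenger haptoglobin, was broader, in 85 positive and 408 negative cells (23.3 against 629.5 CPM), as was Mgp, matrix Gla protein, in 138 and 285. Saa3, an acute phase protein, was found in 40 negative cells.

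Markers of cells the gate should not hold were read on both sides. Of 12 fibroblast, mural and mesothelial markers 7 were measured, and 6 of these were 2-fold lower in positive cells. A marker could reach the minimum of 20 CPM through the negative side alone, so that count is a description. The collagen gene Col1a1 stood at 5.68 against 131 CPM, found in 19 positive and 103 negative cells, and Col3a1 at 22.7 against 405. The summed level of the 12 was 584 and 2025 CPM, with Msln most of the first, and the median negative cell had none of them. Msln, a mesothelial marker that lung tumours also make, lay the other way at 473 against 188 CPM, in 261 and 176 cells. None of 8 endothelial markers reached 20 CPM. In KPF1F2 pre-depletion the collagen folds were of the opposite sign, with Col1a1 at 2.75. Their part in the genes above was not tested.

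Both sides overlapped cell by cell. For each list the CPM of its members, leaving out the genes of the rule, was summed in each cell. Of positive cells 7% lay above the negative median of the type 2 list and 9% above that of fatty acid synthesis. For the squamous list 96.2% of positive cells lay above the negative median and 4.01% of negative cells above the positive one, and for glycolysis 91% and 1.60%. The p53 list overlapped more (79.2% and 22.9%), and the immediate-early list did not separate them (49.8% and 50.3%).

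Cells with UPRT_short differed among themselves by whether CRE-ERT2 was also found. The 284 with both had a median type 2 level of 2674 CPM (quartiles 1603 and 12187), the 116 with UPRT_short only 19316, the 261 with CRE-ERT2 only 26746 and the 748 with neither 82926 (13236 and 271854). Their median depths were 43761.5, 24723.5, 30294 and 23203.5 UMIs, so the classes differ in depth as well. Glycolysis followed the reverse order, at 6008, 3512, 2689 and 1953 CPM, as did squamous genes, at 640.2, 309.5, 233 and 89.7. MHC class II broke the order: cells with CRE-ERT2 only were highest, at 16647 CPM against 10022 with neither, 6221 with UPRT_short only and 217 with both. Medians of type 1 genes were close in the 3 classes with a transgene transcript, at 13108, 11782 and 12231 CPM, and lower with neither, at 5089.9. Krt7 carries much of the type 1 sum. For Ager only the CPM summed over each class is given, which is not a median per cell. It had another order, at 669.9, 1797 and 2370.5 CPM in these classes and 2159 with neither. Between UPRT_short cells and cells with CRE-ERT2 only, 133 (2.28%) of 5831 genes were 2-fold higher and 221 (3.79%) 2-fold lower, and between cells with CRE-ERT2 only and with neither, 144 (2.51%) of 5742 and 182 (3.17%).

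**Figure D4:**
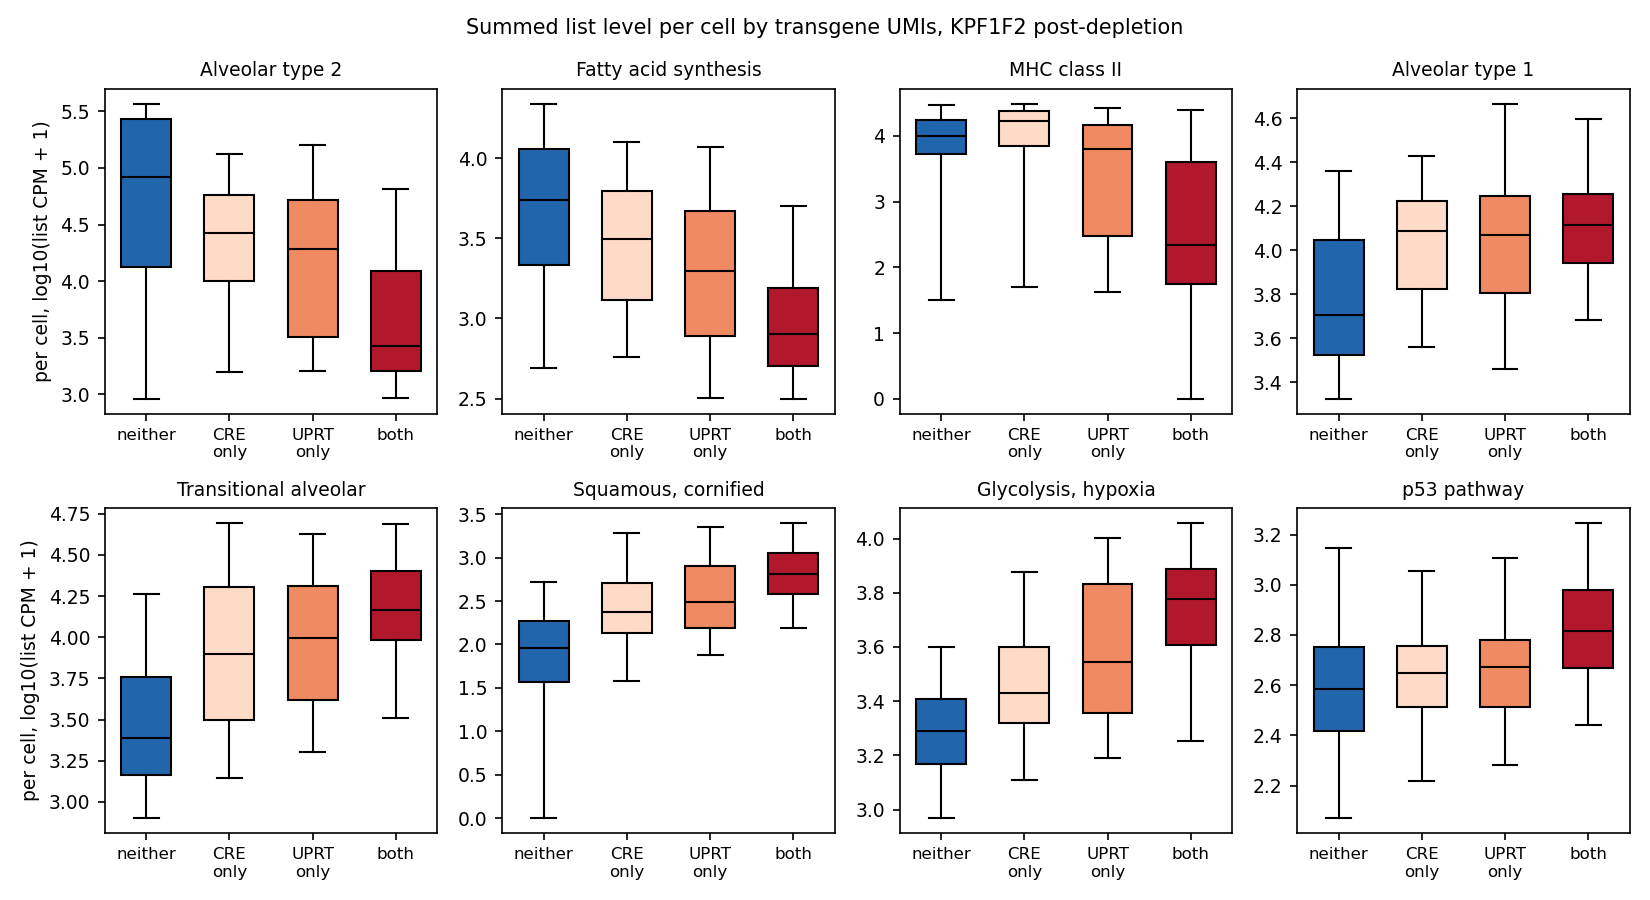
Summed CPM per cell of 8 gene lists (log10 of CPM plus 1) in KPF1F2 post-depletion cells with neither transgene transcript (748), CRE-ERT2 only (261), UPRT_short only (116) or both (284); boxes show quartiles and median, whiskers the 5th to 95th percentile. Type 2 and fatty acid levels step down from left to right and squamous and glycolysis levels step up, while MHC class II is highest with CRE-ERT2 only.

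Positive cells were also divided by their UPRT_short UMIs, the value that set the sides, so that the levels are a description. Cells with 1 UMI of it (67, median depth 29414 UMIs), 2 to 9 (138, 29653) and 10 or more (195, 42158) had Cd74 at 6185, 4670.1 and 1531 CPM. Lamp3 stood at 287, 109 and 30.4 CPM, and Scd1 at 1699, 997 and 362. Sdcbp2 ran the other way at 85.3, 274 and 402, with Cdkn2a at 392, 590.4 and 684. Nkx2-1 stood at 161, 156 and 95.9 CPM, and Aqp5 had no such order, at 2666, 3737 and 2842. The 67 cells with 1 UMI lay between the others and the negative side in each of these 7 genes, which were picked for display. Some of the highest folds ran against this order. Dmbt1 stood at 236, 264 and 0.186 CPM, Rbp2 at 136, 97.3 and 1.58, Prl2c2 at 105, 70.8 and 54.0 and Prl2c3 at 137, 114 and 101. With at least 2 UMIs asked of positive cells the counts of 2-fold genes were 657 and 482.

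Across single cells, the correlation of list levels was much the same on both sides for some pairs and not for others. The rank correlation of type 2 with MHC class II levels was 0.80 over the 400 positive cells and 0.20 over the 748 negative cells. That of type 1 with MHC class II was −0.24 and 0.52. Type 2 with fatty acid synthesis, leaving out the gene on both lists, gave 0.72 and 0.78, and glycolysis with transitional genes 0.49 and 0.52. Type 2 levels were correlated negatively with glycolysis (−0.48 and −0.37), transitional (−0.29 and −0.46) and squamous levels (−0.36 and −0.17). The cells of a side share 1 library and differ in the share of other RNAs, and these correlations are given as descriptions.

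The same rule in KPF1F2 pre-depletion, a library not used to choose the cells, gave 36 positive and 110 negative cells, so values there are coarse. Of 5678 genes 616 (10.8%) were 2-fold higher and 324 (5.71%) 2-fold lower, and with TMM scaling 409 and 459, so the split between directions depends on the scaling there. Of 536 genes 2-fold higher above and measured in both libraries, 389 were 2-fold higher there too, which is 72.6% of these and 68.3% of the 570 such genes of the pre-depletion library. Of 377 lower genes 238 were 2-fold lower, 63.1% and 85.0% of 280, and 8 were 2-fold the other way. Folds correlated at r = 0.85 across 5335 genes, which are not independent replicates. Pre-depletion folds were 4.87 for Sdcbp2, 4.67 for Cdkn2a, 6.57 for Onecut2, 3.81 for Sox9, −5.99 for Sftpc, −6.34 for Hc and −2.67 for Fasn. The type 2 median was −2.10, the glycolysis median 1.47 and the MHC class II median −1.02. The interferon median was of the other sign, 0.67 over 11 measured genes.

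In KP the sides could be set by CRE-ERT2 alone. Among 768 cells with it and 970 without in KP post-depletion, 35 of 5603 genes (0.625%) were 2-fold higher and 60 (1.07%) 2-fold lower. KP pre-depletion, with 218 and 232 cells, gave 219 of 5475 (4.00%) and 135 (2.47%). Either way these made 1.70% and 6.47%. The CRE-ERT2 contrast in KPF1F2 post-depletion, 545 cells with it against the same 748 without either transcript, gave 436 of 5766 (7.56%) and 298 (5.17%). In KPF1F2 pre-depletion, 46 against 110 cells gave 511 of 5705 (8.96%) and 246 (4.31%), or 333 and 335 with TMM scaling. The sides are not set alike in the genotypes. Of the 545 cells 284 also had UPRT_short, and 116 cells with UPRT_short only were kept out of the negative side. In KP, which has no UPRT_short UMI, negative cells lack CRE-ERT2 alone. The negative cells of that post-depletion contrast are those used above, so its values are given side by side only. CRE-ERT2 is found in a larger share of deep cells in every library. Ddx3y, a gene of the Y chromosome, had 521 and 922 UMIs in positive and negative cells of KPF1F2 post-depletion. It had 0 on both sides of both KP libraries. Depth, library, sex of the mice, genotype and the way the sides were set cannot be told apart here.

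Most of the genes counted above had the same direction in KP, and a minority reached 2-fold. Of the 516 higher genes measured in KP post-depletion 510 had a fold above 0 and 13 reached 2-fold (2.52% of these and 72.2% of the 18 such genes there), while of 307 lower genes 289 lay below 0 and 45 reached 2-fold (14.7%, and 86.5% of 52). The median fold of all genes in KP post-depletion was 0.131, so a fold above 0 was the more common there. In KP pre-depletion 141 of 463 and 97 of 340 reached 2-fold. The type 2 median was −0.74 in KP post-depletion and −0.86 pre-depletion, against −1.81 and −1.76 for the CRE-ERT2 contrast in KPF1F2. For squamous genes these were 0.37, 1.64, 3.05 and 3.91, for glycolysis 0.45, 0.78, 1.29 and 1.30, and for MHC class II −0.68, −0.64, −0.59 and −0.28. Among single genes in KP, Sftpc had folds of −0.71 post-depletion and −0.73 pre-depletion, Sdcbp2 0.79 and 2.08, and Cdkn2a 0.53 and 1.60. Col6a2, −1.02 in the comparison of UPRT_short cells, stood at −2.11 and −1.97 there, but at 0.48 in UPRT_short cells of KPF1F2 pre-depletion and 1.06 in cells with CRE-ERT2 there. The difference between genotypes was not tested, since each fold comes from 1 library.

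**Figure D5:**
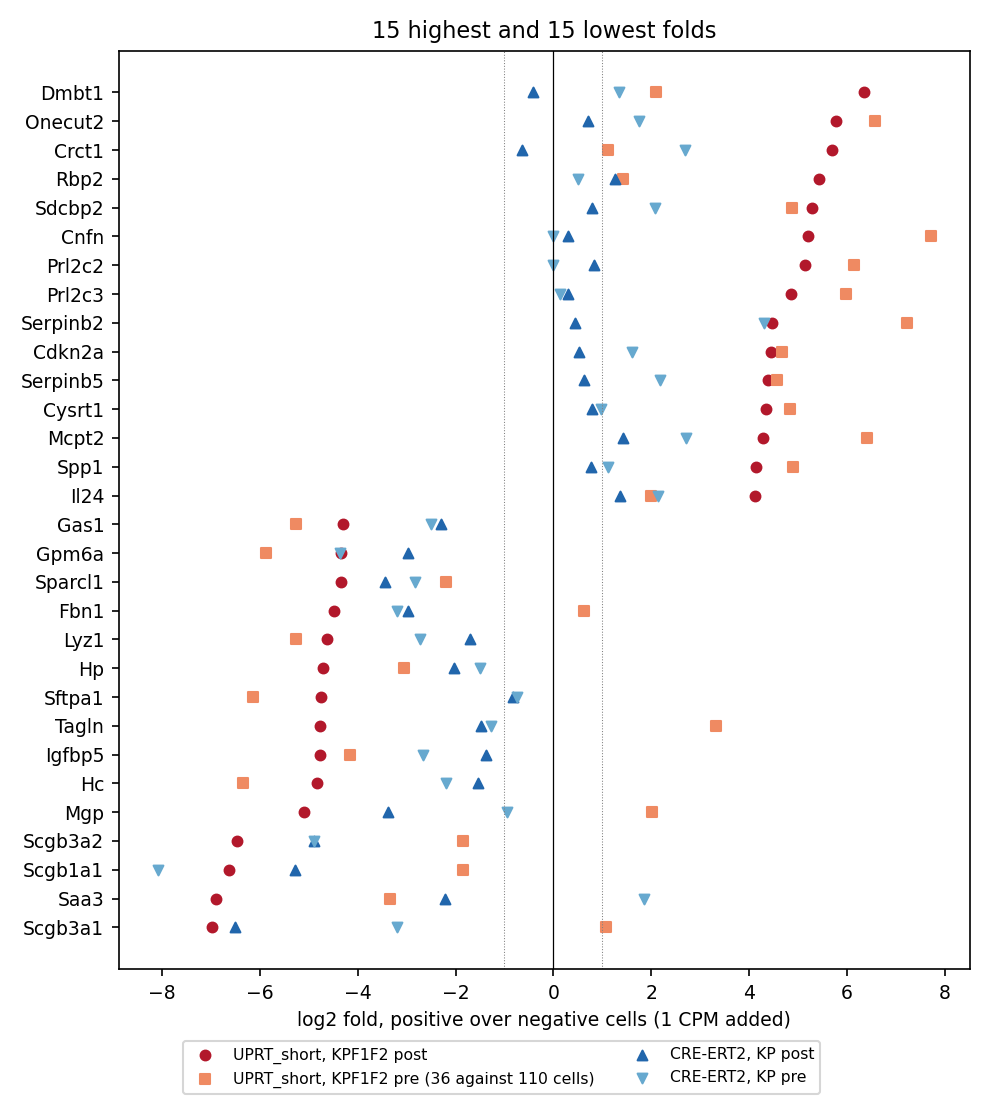
Log2 folds of the 15 highest and 15 lowest genes of the KPF1F2 post-depletion comparison (red circles) beside the same rule in KPF1F2 pre-depletion (orange squares) and CRE-ERT2-positive over negative cells of KP post-depletion and pre-depletion (blue triangles); dotted lines mark 2-fold. All KPF1F2 pre-depletion points of the higher genes lie right of 2-fold, and most KP post-depletion points of these genes within or near 2-fold. Tagln, Mgp, Scgb3a1 and Fbn1 change side in KPF1F2 pre-depletion. Some of the pre-depletion points rest on very few UMIs in positive and negative cells: Crct1 on 2 and 0, Dmbt1 on 8 and 1, and Fbn1 on 16 and 17.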

How the data were processed

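Single-cell RNA libraries (10x 3′ v3.1, per the labels' protocols) of macrodissected mouse lung tumours, before and after magnetic depletion of CD45 and CD31 cells, were used as the UMI counts that the authors deposited. Per the file headers the counts come from Cell Ranger 6.0.0, and the build is mm10 per the submitters' processing notes. How reads with several matches and free RNA were handled is not stated in these sources. The features were 28006, among them added transgene and Foxa pieces. Libraries shared 6 to 16 barcodes per pair.

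Counts were summed over the cells of each side, given as CPM, and compared as log2 folds with 1 CPM added, for genes with a mean of at least 20 CPM. A fold of at least 2 counts as different. No test was made with 1 library per group. Intervals are 95% (exact Poisson for CPM, conditional binomial for ratios, Clopper-Pearson for shares). Named genes are the 15 highest and 15 lowest folds left after the filter given with the promoters, and a short set named in any case. Each list added up to 4 members of largest fold in the direction of its median and up to 2 in the other. Others within a list were named after their values were seen. Thinning drew 10000 UMIs per cell with seed 1. The doublet caller scrublet marked 4 of 2566 cells (0.156%), so it had not worked, and doublets were kept; the 91 highest scores (19 positive, 25 negative cells) were left out in an alternative. Calculations were tested on simulated data. Python 3.11.15, numpy 2.4.6, scipy 1.17.1, pandas 2.3.3, scanpy 1.11.5, matplotlib 3.10.9 and R 4.3.3 were used, with edgeR 4.0.16 and DESeq2 1.42.0 for scaling factors only. Alternatives changed depth, thinning, side definitions, scaling, CPM added or required, cell filters and free RNA. The cells and gene lists were chosen with earlier results of these data known. Some genes are not reported here.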

Additional observations from a re-analysis of the deposited data

Results flagged for a closer look

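For 3 of the named genes measured in all 4 libraries, the contrast of CRE-ERT2-positive with negative cells had opposite signs in the genotypes, in both libraries of each. The interval of the ratio had to leave out 1 each time. The difference was not tested. Signs are against 0, while the median fold of all genes was 0.223 and 0.288 in KPF1F2 post- and pre-depletion and 0.131 and 0.125 in KP. Tm4sf1, a tetraspanin-like surface protein, had folds of −0.632 and −0.376 in KPF1F2 post- and pre-depletion and 0.902 and 1.421 in KP. Vegfa had −0.566 and −1.093 against 0.367 and 0.127, the last being at the median of all genes there. Hspa1a, a heat shock protein whose close copy Hspa1b may share its reads, had −0.218 and −0.317 against 0.228 and 0.244.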

How the results depend on the processing

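No paired analysis was possible because each group has 1 library. Of the 114 named genes that were 2-fold different, 110 to 114 kept their direction under each alternative, and 86 (cells from 20000 to below 40000 UMIs) to 114 were still 2-fold different, 89 with the positive side set by CRE-ERT2. Among cells from 20000 to below 40000 UMIs, Dmbt1 turned to −0.086, the log2 fold of Ube2c to 0.106 and the median of G2 and mitosis genes to 0.035, and below 20000 UMIs Crct1 turned to −1.732. Without cells with a Mki67 or Top2a UMI, which removes mitosis genes by construction, the mitosis median was 0.084, Ube2c 0.883 and Ccl20 0.656. Counts of 2-fold higher and lower genes were 872 and 984 with a minimum of 5 CPM, 322 and 226 with 50 CPM, and 1135 and 1755 with none, since more or fewer genes enter. Higher genes made up 39.3% of those counted without a minimum, against 56.4% with it, and TMM or DESeq2 factors gave 520 higher and 462 lower. With any CRE-ERT2 allowed on the negative side 343 genes were higher and 361 lower. Alternatives chosen after seeing the data gave 0.198 for Ccl20 without the 5 top cells of each side, and 409 (KPF1F2 pre-depletion, UPRT_short) and 333 (CRE-ERT2) higher genes with TMM scaling. At 20000 UMIs or more KP post-depletion gave 23 higher and 36 lower. The causes of the other changes were not tested.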

Other observations

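Foxa3, a family member that was not floxed, was too low to be counted but differed between classes of cells. It stood at 8.32 CPM in cells with both transgene transcripts, 8.21 with UPRT_short only, 6.54 with CRE-ERT2 only and 2.14 with neither, from 124, 28, 65 and 43 UMIs. In KP, where 653 and 381 UMIs were found post-depletion in cells with and without CRE-ERT2, its fold was 0.47, and pre-depletion, with 164 and 39 UMIs, 1.14.

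Of 10 YAP and TEAD target genes 5 were measured, with tissue factor, F3, 2-fold higher (1.61) and Amotl2 (−1.22) and Crim1 (−1.68) 2-fold lower. Of all genes 9.94% were higher and 7.68% lower, and from so few members no shift of the list is read.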
